A study of Homo sapiens with 12 samples.

Results

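CPS1 and 9 other genes of the urea cycle and of ammonia, glutamine and ornithine handling were followed in 12 RNA-seq libraries of A549, an established human lung carcinoma line. The members were found by gene name, and all 10 were present among the 58676 genes of the deposited table. The members were chosen by the FPKM of CPS1, which was nearly lost in both knockout lines, so the difference in CPS1 between knockout and control libraries is given as a description, with no test. The cells were a control line (genotype label Control1) and lines NFE2L1 KO1 and NFE2L1 KO2, which are knockouts of NFE2L1, a transcription factor that raises proteasome genes when the proteasome is inhibited. Each line received DMSO vehicle or 200 nM bortezomib, a proteasome inhibitor, for 4 h, and each of the 6 groups had 2 libraries. The labels do not say how the lines were made, whether each is 1 clone, or whether libraries came from separate cultures, so p-values measure only the spread between these libraries.

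The urea cycle turns ammonia into urea and is complete in liver. Carbamoyl phosphate synthetase 1, the product of CPS1, starts it in mitochondria by joining ammonia and bicarbonate, and needs N-acetylglutamate, which the enzyme encoded by NAGS makes. Carbamoyl phosphate then joins ornithine to form citrulline, which ASS1 and ASL turn into arginine. ARG2 is a mitochondrial arginase, OAT moves an amino group between ornithine and glutamate, and SLC25A15 carries ornithine and citrulline across the inner mitochondrial membrane. GLUD1 releases ammonia from glutamate, GLUL fixes it into glutamine, and CAD makes carbamoyl phosphate in the cytosol for pyrimidine synthesis. CPS1 is known to be active in lung cancers that lack the kinase LKB1 (STK11), of which A549 is one.

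Library depth was 13211608 to 23819258 reads assigned to genes. In the R2 libraries 12.3% to 19.3% of reads came from mitochondrial genes, against 5.44% to 6.80% in the others. NFE2L1 itself had an FPKM (fragments per kilobase of a gene's length, relative to all reads assigned to genes) of 72.7 and 151 in control vehicle, 8.45 and 14.8 in KO1 vehicle, and 18.6 and 33.6 in KO2 vehicle. With bortezomib it was 109 and 189, 27 and 35.8, and 36.7 and 50.8. Values are given with the R1 or unnumbered library first and the R2 library second. The knockout libraries stood at 9.82% to 24.8% (KO1) and 22.3% to 33.7% (KO2) of the control library with the matching suffix. The lung epithelial keratin KRT8 was at 126 to 703 FPKM, while the alveolar markers NKX2-1, SFTPB and SFTPC were at or near 0. Hepatocyte markers summed to at most 2.73 FPKM in a library, leukocyte markers to 0.137 and endothelial markers to 0.24.

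CPS1 (ENSG00000021826) lies on the plus strand of chromosome 2 at 210477682 to 210679107. Its first annotated start faces that of LANCL1, a glutathione-binding protein gene on the minus strand whose end at 210477652 leaves 29 bases between them. The 29 bases between the genes (chr2:210477653-210477681, plus strand, GRCh38.p14) are shown because both genes were low in the knockout libraries. The second sequence (chr2:210477621-210477650) holds, in capitals, the only match in the 3 RefSeq start windows of CPS1 to TGANNNNGC, a loose form of the element bound by NFE2L1 with small MAF proteins, 54 bases before the RefSeq start. The third (chr2:210593105-210593354) is the 250 bases before the most downstream RefSeq start, shown as a start of the same gene that holds no match and overlaps no annotated exon.
LANCL1-CPS1 gap: actcctaatccctccccacacccaggttt
CPS1 match: tttgtccttcTGAGGCTGCcatcccaaact
CPS1 downstream start: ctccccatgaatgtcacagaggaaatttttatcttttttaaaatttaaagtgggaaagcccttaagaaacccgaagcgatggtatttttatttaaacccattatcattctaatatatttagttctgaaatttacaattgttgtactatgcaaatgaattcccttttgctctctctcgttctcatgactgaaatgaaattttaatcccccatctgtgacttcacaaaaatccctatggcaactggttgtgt
The sequences are from RefSeq. TGANNNNGC was searched on both strands in the 250 bases before each start, and 3 of the 14 windows of the 10 members held it (CPS1, ASS1 and OAT). Of all 35116 windows of the same length, 35.2% held it. The stricter TGACNNNGC, which is contained in it, was in 10.9% of all windows and in 0 of the 14. A match describes the letters only.

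In control vehicle, CPS1 was at 38.2 and 80.4 FPKM (9508 and 15694 reads). In KO1 vehicle it was at 0.11 and 0.0413 FPKM (16 and 8 reads), and in KO2 vehicle at 0.44 and 0.666 (99 and 134 reads). The control and knockout libraries were far apart, and the 2 knockout lines did not overlap each other. With bortezomib, CPS1 was at 15.8 and 30.1 FPKM in the control line, 0.0435 and 0.0355 in KO1 (6 and 7 reads), and 0.259 and 0.321 in KO2 (53 and 74 reads). These groups again kept the order control, KO2, KO1, without overlap. KO1 libraries held 0.0513% to 0.289% of the CPS1 level of the suffix-matched control, and KO2 libraries 0.829% to 1.64%. Both knockout lines are set against the same control libraries, and in bulk RNA fewer expressing cells and less RNA per cell cannot be told apart. On the log2(FPKM + 1) scale the differences from control were -5.72 (KO1) and -5.19 (KO2) in vehicle and -4.46 and -4.15 with bortezomib. This scale compresses low values, and on recovered reads (voom in limma) the same differences were -9.72, -6.85, -9.03 and -6.27. CPS1-IT1, an RNA gene inside CPS1 on the same strand, was listed at 0 in all 12 libraries.

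**Figure D1:**
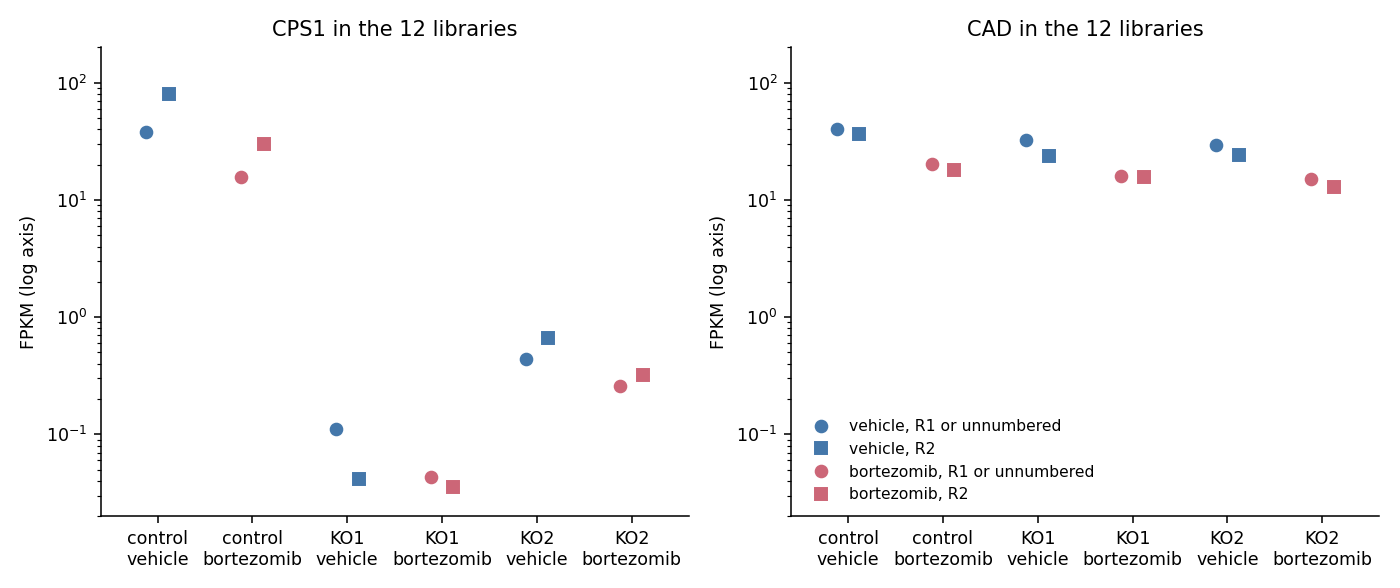
FPKM of CPS1 (left) and CAD (right) in each of the 12 libraries on a shared log axis; circles are R1 or unnumbered libraries, squares R2, blue vehicle and red bortezomib. CPS1 lies at 15.8 to 80.4 FPKM in the 4 control libraries and at 0.0355 to 0.666 in the 8 knockout libraries, while CAD stays between 13.0 and 40.6.

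The residual CPS1 signal differed in size between the knockout lines. KO2 exceeded KO1 in all 4 suffix-matched pairs, by 3.99 and 16.1 times in vehicle and by 5.96 and 9.03 times with bortezomib. Pooled over its libraries, KO1 vehicle had 24 CPS1 reads (95% Poisson interval 15.4 to 35.7) and KO2 vehicle 233 (204 to 265), with counting error only. The contrast of KO1 with KO2 in vehicle was -0.53 on the log2(FPKM + 1) scale and -2.87 on recovered reads (voom). As the members were chosen on CPS1 in these libraries, no p is given for CPS1.

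CPS1 was also lower with bortezomib than with vehicle in 6 of 6 suffix-matched pairs. The ratio was 0.413 and 0.374 in the control, 0.394 and 0.861 in the KO1 line, and 0.589 and 0.481 in the KO2 line. In the control line the change was -1.31 on the log2(FPKM + 1) scale (SE 0.379, or 0.274 with a replicate block, a term for R2 against the other libraries). In the knockout lines the remaining reads were few. Pooled KO2 libraries had 0.547 FPKM in vehicle (95% Poisson interval 0.479 to 0.622) and 0.292 with bortezomib (0.243 to 0.347). These intervals did not overlap, but they cover counting error only and leave out the spread between libraries. The KO1 intervals, from 24 and 13 reads against 233 and 127 in KO2, did overlap, at 0.0708 (0.0454 to 0.105) and 0.0388 (0.0207 to 0.0663).

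NAGS, the maker of the CPS1 activator, was at 0.144 to 0.507 FPKM (8 to 28 reads) and was below the mean FPKM of 1 needed for testing. Its lowest library was KO2 bortezomib R2 and its highest KO2 bortezomib R1, so the spread within that group covered the range. ARG2, the arginase, was also under the limit at 0.0219 to 0.614 FPKM (1 to 32 reads). ARG2 was at 0.614 and 0.236 in KO2 vehicle, above the 0.104 and 0.0221 of control vehicle and the 0.0298 and 0.0446 of KO1 vehicle. In KO2 bortezomib it was at 0.444 and 0.0374, which overlapped the control bortezomib libraries at 0.176 and 0.0878. VTI1B overlaps ARG2 on the other strand (highest FPKM 5.67), and without a stated strand setting their reads cannot be told apart. The other 8 members were tested.

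With bortezomib, GLUL and ASS1 were higher and CAD and SLC25A15 lower in all 3 lines, and in every one of the 6 matched pairs. The share of all genes that moved 1 way in all 6 pairs is not given here. CPS1 was left out of the counts. In the fit without a block, 0 of the 7 other tested members passed an adjusted p of 0.05 in any single line in limma. The background of all 12194 tested genes was as low, with 0.467% called in the control, 0.238% in KO1 and 0.32% in KO2. An unadjusted limma p under 0.05 was reached by 2 of 7 members in each line, and by 12.3% (control), 9.46% (KO1) and 9.59% (KO2) of all genes. With the replicate block 3 of 7 members passed in the control line (background 32.5%), 3 of 7 in KO1 (27.9%) and 4 of 7 in KO2 (27%). In the contrast averaged over the 3 lines, added after the data were seen, 2 of 7 passed without the block (background 11.6%), and 4 of 7 with it (54.9%). With 7 members, these counts do not set them apart from all genes. The median change of those 7 was 0.07, against -0.01 over all genes. Of the 4 fibroblast markers COL1A1 was higher with the drug, with group means of 3.51, 1.49 and 3.95 FPKM in vehicle and 8.4, 13.3 and 17.3 with bortezomib in the control, KO1 and KO2 lines, and its part in the member results was not tested. LUM, COL1A2 and DCN did not move with it: LUM was at most 1.4 FPKM and its mean was lower with the drug in both knockout lines, and COL1A2 and DCN were at most 0.408 FPKM. The summed list was 1.85 to 5.62 FPKM in vehicle and 6.1 to 24.1 with bortezomib.

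GLUL, glutamine synthetase, was at 0.799 and 0.314 FPKM in control vehicle and at 2.57 and 1.23 with bortezomib. In KO1 it was at 0.439 and 0.304, and 1.99 and 1.23 with the drug. In KO2 it was at 2.5 and 1.81, and 6.66 and 5.05. Vehicle and bortezomib libraries of a line did not overlap, and the ratios within pairs were 2.67 to 4.55. The changes were 0.88 in control, 0.92 in KO1 and 1.12 in KO2 on the log2(FPKM + 1) scale, with limma adjusted p of 0.281, 0.34 and 0.207. The replicate block gave limma adjusted p of 0.00363, 0.00355 and 0.00127, the first of which became 0.0507 without control bortezomib replicate 1. Averaged over the lines GLUL rose by 0.97 (limma adjusted p 0.00968, and 2.4e-05 with the block), a call that held in each of the 12 fits without the block that left out 1 library.

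CAD, the cytosolic carbamoyl phosphate enzyme, was at 40.6 and 36.5 FPKM in control vehicle and 20.1 and 17.9 with bortezomib. In KO1 it went from 32.4 and 23.7 to 16.1 and 15.7, and in KO2 from 29.3 and 24.1 to 15.2 and 13.0. All 6 bortezomib libraries lay below all 6 vehicle libraries. The changes were -0.98, -0.77 and -0.87 (limma adjusted p 0.238, 0.491 and 0.39, and with the block 0.000758, 0.00335 and 0.00173). Averaged over the lines CAD changed by -0.87 (limma, adjusted p 0.0173, or 1.5e-05 with the block). Without the block this call was lost in 6 of the 12 fits with a library left out, with adjusted p up to 0.0636.

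ASS1, which joins citrulline and aspartate, was at 3.25 and 1.61 FPKM in control vehicle and 5.78 and 2.63 with bortezomib. It was at 1.82 and 0.494 in KO1 vehicle, 2.8 and 1.7 in KO1 bortezomib, 1.83 and 1.02 in KO2 vehicle, and 4.17 and 2.64 in KO2 bortezomib. The R2 library was the lower one in all 6 groups. Vehicle and bortezomib libraries overlapped in the control line and KO1 and did not in KO2, and each pair was higher with the drug. Ratios within pairs were 1.54 to 3.44. The changes were 0.57, 0.64 and 0.86 (limma adjusted p 0.704, 0.755 and 0.604, and with the block 0.0235, 0.0172 and 0.00466). With the block, the control call was lost in 3 of 12 fits with a library left out (adjusted p up to 0.198), the KO1 call in 3 (up to 0.135) and the KO2 call in 1 (0.0571, without KO2 vehicle replicate 1). In the control line the 3 were those without either vehicle library or without bortezomib replicate 1, and in KO1 those without vehicle replicate 2 or either bortezomib library. Reads of ASS1 can be shared with its processed pseudogenes.

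SLC25A15, the ornithine carrier, was at 9.62 and 7.8 FPKM in control vehicle and 9.21 and 6.07 with bortezomib. It was at 9.77 and 5.95 and then 8.24 and 5.16 in KO1, and at 8.59 and 5.91 and then 6.34 and 4.12 in KO2. Pairs differed by a ratio of 0.697 to 0.957, and the groups overlapped in every line. In KO2 the change was -0.41 (limma adjusted p 0.887, and 0.0402 with the block), and that call remained in 4 of 12 fits with a library left out. It was lost without any 1 of the 4 KO2 libraries, the 2 control bortezomib or the 2 KO1 bortezomib libraries.

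**Figure D2:**
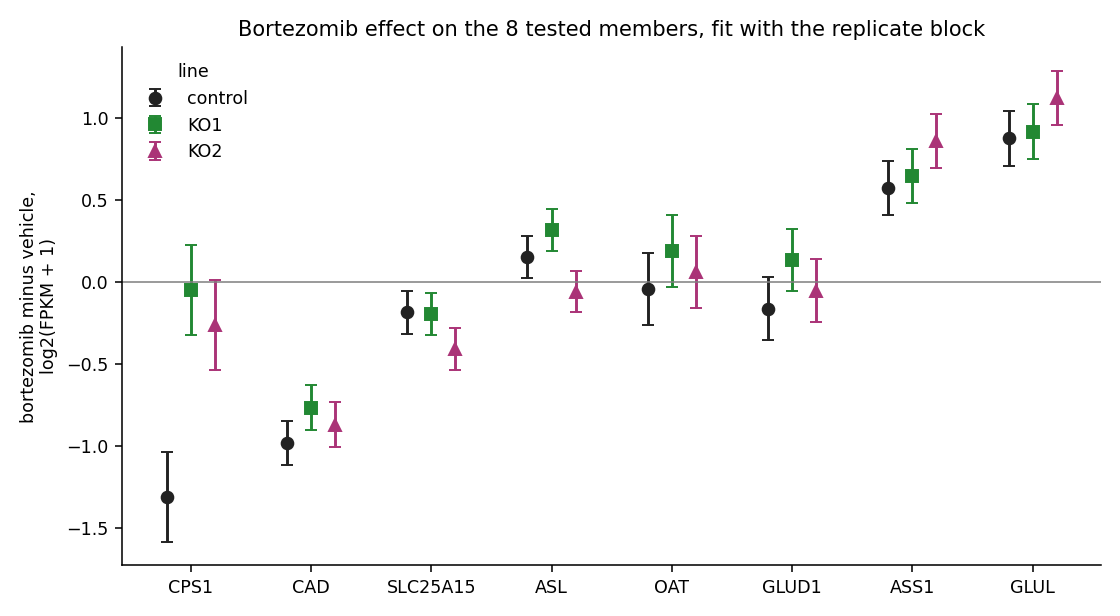
Difference between bortezomib and vehicle in log2(FPKM + 1) for the 8 tested members in the control, KO1 and KO2 lines, from the limma fit with the replicate block; bars are 1 standard error. CAD lies between -0.98 and -0.77 and GLUL between 0.88 and 1.12 in all 3 lines. CPS1 lies below 0 by more than its bar in the control line. In the knockout lines CPS1 was at most 0.666 FPKM, where this scale compresses changes, so its bars cannot show whether the drug effect is absent there.

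ASL, OAT and GLUD1 passed in no line. ASL, argininosuccinate lyase, was at 2.9 to 4.71 FPKM and was higher with bortezomib in 5 of 6 pairs. OAT was at 7.77 to 28.3 FPKM, with 3 pairs higher and 3 lower. GLUD1 was at 13.3 to 43.6 FPKM, with 2 higher and 4 lower. For OAT and GLUD1 the R2 libraries were at 0.344 to 0.721 and 0.306 to 0.56 of the other library of their group, in 6 of 6 groups. The larger mitochondrial share of R2 libraries moved with this difference, and its part was not tested. GLUD1 reads can be shared with GLUD2, its intronless copy, and with FAM35A on the other strand (highest FPKM 18.8).

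**Figure D3:**
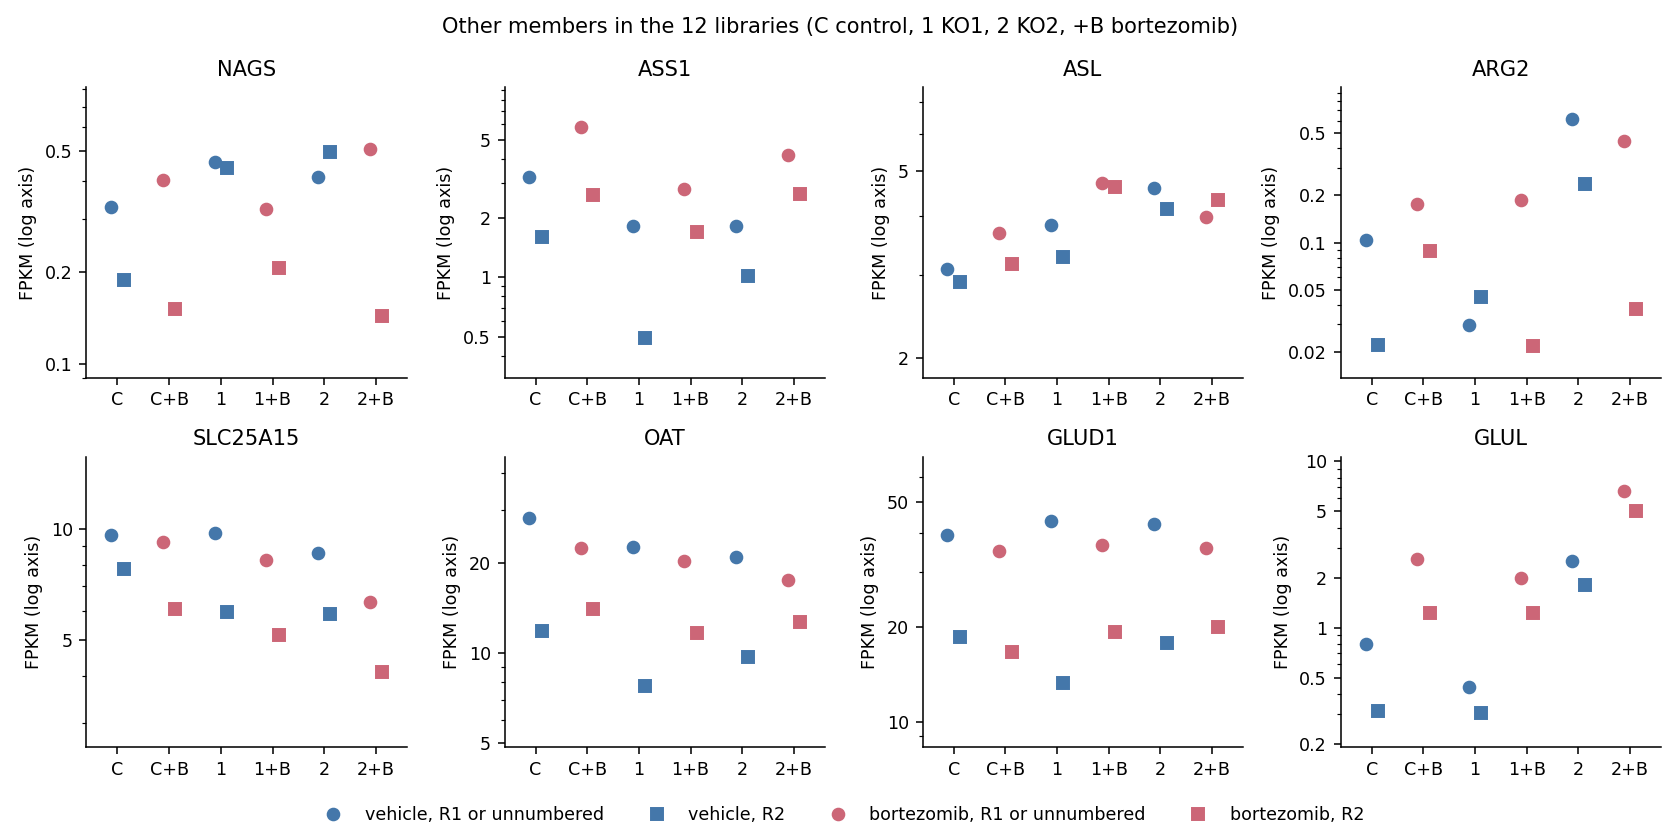
FPKM of the 8 members other than CPS1 and CAD in each library, on a log axis per panel; C is control, 1 is KO1, 2 is KO2 and +B is bortezomib, with circles for R1 or unnumbered libraries and squares for R2. GLUL is higher with bortezomib in each line and highest in KO2 (up to 6.66), and OAT and GLUD1 split by R2 in all 6 groups.

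Beyond CPS1, few members were called between the knockout lines and control, where few of all genes were called as well. Without the block 0 of the 7 others passed in limma in any of the 4 contrasts. The backgrounds were 0.213% (KO1) and 0.23% (KO2) in vehicle, and 0.107% and 0.0656% with bortezomib. In the same order 0, 1, 0 and 1 members had an unadjusted limma p under 0.05, against 4.41%, 3.55%, 5.5% and 3.91% of all genes. With the block 1 of 7 passed in each contrast, against 7.96% and 4.89% in vehicle and 12.8% and 6.47% with bortezomib. The member that passed was ASS1 in KO1 and GLUL in KO2, under both treatments. With 7 members, 1 call does not set them apart from all genes. The median differences of the 7 were -0.17 and -0.25 in vehicle, where the medians of all genes were 0.02 and 0.06.

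GLUL stood out in KO2, with values of 2.5 and 1.81 FPKM in vehicle above all control and KO1 vehicle libraries. The difference from control was 1.03 in vehicle (limma adjusted p 0.563, and 0.00642 with the block) and 1.27 with bortezomib (0.437, and 0.00223). The vehicle call was lost without KO2 vehicle replicate 2 (limma adjusted p 0.0878 with the block). In KO1 GLUL differed from control by -0.17 in vehicle. The direct contrast of KO1 with KO2 was -1.19 (limma adjusted p 0.683, and 0.00607 with the block, lost without either KO2 vehicle library). In that contrast 0 of 7 members other than CPS1 passed without the block (background 0.0656%) and 1 of 7 with it (2.48%). Without the block 1 of the 7 had an unadjusted limma p under 0.05, against 2.35% of all genes. The lung epithelial markers KRT8, KRT18 and EPCAM were higher in KO2 vehicle as well, by 1.51, 1.55 and 1.15 (limma adjusted p 0.0029, 0.000883 and 0.00188 with the block). There 3 of the 6 tested markers of this list passed as higher and 0 as lower, where 4.89% of all genes passed. Markers of the list also passed in KO1 vehicle, where GLUL did not. KRT18 (0.69) and CDH1 (0.96) were higher there and AKR1C1 (-2.04) lower (limma adjusted p at most 0.041 with the block). The summed level of the list was 1040 to 1930 FPKM in control vehicle, 1020 to 1600 in KO1 vehicle and 2310 to 2920 in KO2 vehicle. AKR1B10 was the largest part of this sum, with group means of 1060, 674 and 1500 FPKM in the same order. The means of KRT8 were 209, 337 and 571 and those of KRT18 171, 282 and 503, so the sum hides higher keratins in KO1. The part of these markers in the GLUL difference was not tested.

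ASS1 was lower in KO1 than in the suffix-matched control in 4 of 4 pairs, with a difference of -0.70 in vehicle (limma adjusted p 1, and 0.0294 with the block) and -0.63 with bortezomib (1, and 0.0334). Each of these calls was lost without any 1 of the 4 libraries it compares, with adjusted p up to 0.173 and 0.254. In KO2 the differences were -0.48 and -0.19 and passed in neither fit. CAD was lower in 8 of 8 knockout pairs, at 0.649 to 0.877 of control. Its differences of -0.46 (KO1) and -0.52 (KO2) in vehicle had limma adjusted p of 0.0719 and 0.0639 with the block, and 0.043 and 0.032 when the values were also scaled by median of ratios. OAT was lower in 8 of 8 pairs (0.655 to 0.904 of control) and ASL higher in 8 of 8 (1.08 to 1.49 times control), and neither passed in any of the 4 contrasts.

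The ratio of CPS1 to CAD, both in FPKM and so per gene length, compares the messages of the mitochondrial and cytosolic carbamoyl phosphate enzymes. It was 0.942 and 2.2 in control vehicle and 0.784 and 1.68 in control bortezomib. In KO1 it was 0.00174 to 0.0034, and in KO2 0.015 to 0.0277. CPS1 in the control vehicle R2 library was 2.1 times that in the other one, while CAD, ASS1, OAT, GLUD1, GLUL and SLC25A15 were each lower in R2 in 6 of 6 groups. For the CPS1 to CAD ratio the 3 lines did not overlap, and CPS1 exceeded CAD in the 2 R2 control libraries alone.

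In the interaction of knockout and bortezomib, 0 of the 7 members other than CPS1 passed in limma without or with the block. The background was 0% in both, with 115 and 1249 of all genes and 0 of 7 members at an unadjusted p under 0.05. Among these 7 the estimate was largest for GLUD1, at 0.20 (SE 0.855 without the block). These data therefore do not show whether the drug effect on CAD, GLUL, ASS1 or SLC25A15 differs between lines.

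The neighbourhood of CPS1 was examined over genes that start within 1 Mb of it. Of 18 such genes 8 were at 0 in every library and 2, LANCL1 and RPE, were high enough to test. LANCL1 was at 23.5 and 14.6 FPKM in control vehicle, 10.2 and 4.01 in KO1 vehicle, and 11.3 and 7.43 in KO2 vehicle. With bortezomib it was at 12.2 and 8.24, 6.12 and 3.1, and 7.79 and 4.17. It was lower in 8 of 8 knockout pairs, at 27.4% to 63.9% of control, a much smaller difference than that of CPS1. In vehicle it changed by -1.39 in KO1 (limma adjusted p 0.797, and 0.000956 with the block) and -0.94 in KO2 (1, and 0.00909). Like CPS1, LANCL1 was lower with bortezomib in 6 of 6 pairs, by -0.83 in the control line (limma adjusted p 0.576, and 0.00426 with the block).

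RPE, a pentose phosphate enzyme gene upstream of CPS1, was at 55.2% and 60.9% of control in KO1 vehicle and 80.6% and 89.7% in KO2 vehicle. Its difference in KO1 vehicle was -0.72 (limma adjusted p 1, and 0.0108 with the block), and that in KO2 was -0.22 (1, and 0.444).

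**Figure D4:**
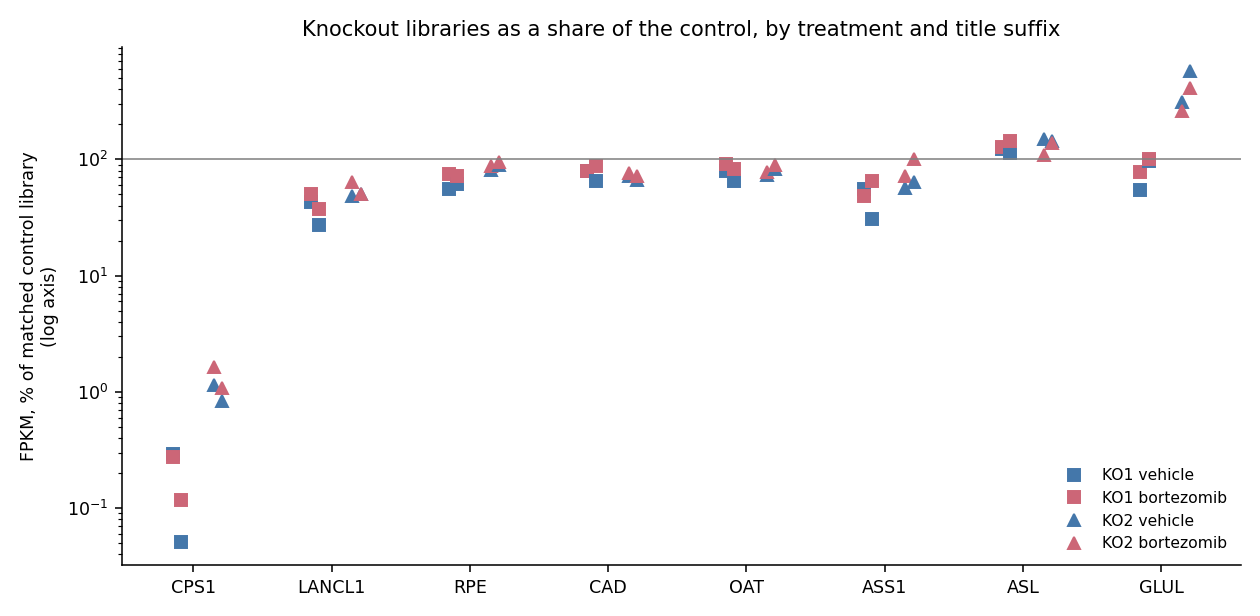
FPKM in each knockout library as a percentage of the control library with the same treatment and suffix, on a log axis, for CPS1, its 2 tested neighbours and 5 members; squares are KO1, triangles KO2, blue vehicle and red bortezomib, and the line marks 100%. CPS1 lies between 0.0513% and 1.64%, LANCL1 between 27.4% and 63.9%, and GLUL in KO2 above 100%.

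Among 12193 other tested genes, those whose log2(FPKM + 1) followed CPS1 most closely over the 12 libraries were SUSD2 (Pearson r 0.972), GABRA5 (0.971), HTRA3 (0.964), RSPO3 (0.964) and KCNH1 (0.953). RSPO3, an enhancer of Wnt signalling, was at 76.2 to 140 FPKM in control libraries and 14.1 to 33.1 in knockout libraries. GABRA5, a GABA receptor subunit gene, was at 24 to 69.3 and 6.18 to 14.3. The 5 genes lie on 5 chromosomes, none of them that of CPS1, and the r values mainly carry the gap between the 4 control and 8 knockout libraries. Of the members CAD had the highest r with CPS1 (0.469, rank 784) and ASL the lowest (-0.788, rank 12075). With each library centred on its R2 or other set, the order at the top changed, to SLC25A15 (0.625), OAT (0.619) and CAD (0.498), and ASL stayed lowest (-0.792).

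The urea cycle enzyme genes OTC and ARG1, which are not members, were at or near 0. OTC, which makes citrulline from carbamoyl phosphate, was listed at 0 in 11 of 12 libraries, ARG1 in 9, and neither exceeded 0.189 FPKM. Of the 8 urea cycle and transport genes that are not members, with OTC and ARG1 among them, 4 were tested. With the block SLC7A1, the cationic amino acid transporter that takes up arginine, rose with bortezomib in all 3 lines (1.26, 1.15 and 1.26, limma adjusted p at most 0.000391). SLC25A12, a mitochondrial aspartate-glutamate carrier, fell in all 3 (-0.70, -0.62 and -0.74, limma adjusted p at most 0.014). In the knockout contrasts 0 of 4 passed in either fit. Of this and the following lists, no gene passed without the block in a single line or knockout contrast. In the average over the 3 lines SLC7A1, GOT1, ASNS, GPT2, DHODH, SMOX, SAT1, PAOX, FOXA2 and CEBPA passed without it (limma adjusted p at most 0.0439). The median change with bortezomib in the control line was -0.23 for these urea cycle genes, 0.33 for the glutamine and transaminase list, -0.21 for the pyrimidine list, 0.16 for the polyamine list and -0.06 for the proline list, where all genes had -0.01.

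Of the 14 genes of glutamine, glutamate and transaminase metabolism 11 were tested, and with the block 4 rose and 0 fell with bortezomib in the control line, 5 and 0 in KO1, and 5 and 0 in KO2. Over all genes 32.5%, 27.9% and 27% passed in these contrasts, in either direction, so that the share in the control line was near the background. Those that rose in all 3 were GOT1, a cytosolic aspartate transaminase (0.95, 1.94 and 1.55), PSAT1 of serine synthesis (0.92, 1.26 and 1.13), the alanine transaminase GPT2 (1.03, 0.88 and 0.98) and asparagine synthetase ASNS (1.09, 0.78 and 0.73). Their limma adjusted p-values were at most 0.0471. Against control, the glutamine transporter SLC1A5 was lower in KO1, by -0.84 in vehicle and -1.13 with bortezomib (limma adjusted p 0.0164 and 0.00307 with the block). GOT1 was higher with bortezomib in KO1 (0.78, limma adjusted p 0.0205 with the block) and KO2 (0.76, limma adjusted p 0.0322 with the block). No other gene of this list passed against control.

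Downstream of CAD, all 9 pyrimidine genes were tested. With the block 1 rose and 2 fell with bortezomib in the control line (DHODH and DCTD), 1 and 1 in KO1 (CTPS2 fell) and 1 and 1 in KO2 (DHODH fell). Over all genes 32.5%, 27.9% and 27% passed in these contrasts, in either direction, so that these counts were near or below the background. CTPS1, which makes CTP, was the riser: it rose with bortezomib by 0.45, 1.05 and 1.09 (limma adjusted p at most 0.0414), opposite to CAD. DHODH, the next mitochondrial step, fell in the control line (-0.72, limma adjusted p 0.00464) and in KO2 (-0.62, limma adjusted p 0.012). CTPS1 was lower in both knockout lines in vehicle, by -0.98 and -0.60 (limma adjusted p 0.00399 and 0.0483 with the block), and was the only one of the 9 to pass there.

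Of 12 polyamine and ornithine genes 11 were tested, and with the block 4 rose and 1 fell with bortezomib in the control line, 5 and 0 in KO1, and 4 and 0 in KO2, where 32.5%, 27.9% and 27% of all genes passed. SAT1, which acetylates polyamines for export and breakdown, rose by 1.46, 2.47 and 1.96, the largest difference of the list. SMOX, a spermine oxidase (1.19, 1.35 and 1.32), AZIN1, which frees ornithine decarboxylase from its antizyme (1.10, 1.70 and 1.56), and the antizyme OAZ1 (0.69, 0.74 and 0.67) also rose in all 3 lines (limma adjusted p at most 0.0423). AMD1, needed for spermidine synthesis, was the 1 that fell in the control line (-0.57), and PAOX, a polyamine oxidase, the further 1 that rose in KO1 (0.71). Of the 5 proline genes found 4 were tested. PYCR1, the last step of proline synthesis, rose in all 3 lines by 0.71 to 1.32 (limma adjusted p at most 0.0114 with the block), and ALDH18A1, the first, fell in the control line (-0.98, limma adjusted p 0.0401 with the block). None of the polyamine or proline genes passed in a knockout contrast.

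Among liver-type transcription factors and regulators of CPS1, FOXA1 was higher by 1.18 and 1.11 and HNF4G by 0.92 and 1.09 in KO1 and KO2 vehicle, and FOXA3 by 1.07 in KO2 vehicle (limma adjusted p at most 0.0372 with the block). Against control, KO1 with bortezomib had FOXA1 (0.89) and HNF4G (1.23) higher and CEBPA lower (-0.89, limma adjusted p at most 0.0138 with the block). The same contrast in KO2 is not reported here. These differences are therefore not shown to be particular to KO1. Over all genes 7.96% (KO1) and 4.89% (KO2) passed in vehicle, and 12.8% in KO1 with bortezomib. With bortezomib FOXA2 (-1.24 in control, -1.19 in KO2 and -1.0 in KO1) and the glucocorticoid receptor gene NR3C1 (-0.74, -0.67 and -0.76) fell in all 3 lines (limma adjusted p at most 0.0144 with the block). Others rose with the drug: CEBPB in KO1 (1.34) and KO2 (1.07), CEBPA in the control line (0.83) and FOXO3 in KO1 (0.55), with limma adjusted p at most 0.0323 with the block. STK11 was at 5.06 to 7.89 FPKM, and messenger level does not show whether a functional kinase is made.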

How the data were processed

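RNA from 12 A549 libraries was measured. The deposited values are FPKM for 58676 genes, which the authors scaled to reads assigned to genes: FPKM multiplied by gene length summed to a constant in every library. All values were whole multiples of 1 read (tolerance 0.01), which gave the read numbers. The submitters' processing notes name CASAVA, STAR 2.5, HTSeq 0.6.1, DESeq2 and hg19, without roles. However, 95.3% of genes, and all 10 members, had the same position in GENCODE 29 (GRCh38), so that build was used. The strand setting is not given in the sources used here.

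Groups came from the labels. limma 3.58.1 (R 4.3.3) was fitted to log2(FPKM + 1) with 1 mean per group, a mean-variance trend and no block. Testing took genes whose mean FPKM was 1 or more (12194, 20.8%), with a Benjamini-Hochberg adjusted p under 0.05 as a call. With 2 libraries a group, no permutation test was used. A second fit added a replicate block of R2 against other libraries. The pairing rests on the data: replicate differences correlated between all 15 pairs of groups (r 0.696 to 0.89). R1 occurs only in knockout groups and unnumbered libraries only in control groups, so pairing across lines is less sure. Alternatives were another pseudocount (0.1), no filter, a block of 3 levels, median-of-ratios scaling, leaving out mitochondrial genes, voom on recovered reads and leaving out each library. Median-of-ratios scaling with the block, left-out libraries with the block and the mean bortezomib contrast were chosen after seeing the data. Code was tested on simulated data.

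Members and gene lists were chosen with earlier results of these data known. Named were all members, NFE2L1, the 5 genes most correlated with CPS1, tested genes within 1 Mb of it, and called or extreme genes of the lists. Part of the list of liver-type factors is not reported here. KRT8, KRT18 and EPCAM were markers of the line. Intervals for reads are 95% Poisson intervals and cover counting error only. Python 3.11.15, pandas 2.3.3 and matplotlib 3.10.9 were used.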

Additional observations from a re-analysis of the deposited data

Results flagged for a closer look

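In vehicle GLUL differed from control by -0.17 in KO1, which passed in neither fit, and by 1.03 in KO2. In the R2 vehicle libraries of KO1 and control it was at 0.304 and 0.314 FPKM (51 and 53 reads), so KO1 showed no clear change. The effect in KO2 minus that in KO1 was 1.19 on the log2(FPKM + 1) scale. As both effects share the control libraries, this equals the contrast of KO2 with KO1 given in the report, which passed in limma with the replicate block and not without it.

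The bortezomib effect on ARG2 was 0.09 in the control line and -0.21 in KO2, a difference of -0.30 on the log2(FPKM + 1) scale, with both libraries of each line moving the same way. This difference was not tested, as ARG2 was under the limit for testing and rests on 1 to 32 reads a library.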

How the results depend on the processing

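Without a replicate block, 0 members passed in any contrast of 2 groups or in the interaction, with the other pseudocount, without the filter, with median-of-ratios scaling, without mitochondrial genes or with voom. The block changed most counts. With the block of R2 against others, of 3 levels, with voom and with median-of-ratios scaling, in this order, the members called were 4, 4, 4 and 4 for bortezomib in the control line, 3, 3, 3 and 3 in KO1, 4, 4, 3 and 3 in KO2, and 4, 4, 4 and 4 (2 without the block) averaged over the lines. For knockout against control in vehicle they were 1, 0, 2 and 2 (KO1) and 1, 1, 3 and 2 (KO2), with bortezomib 1, 0, 1 and 1 (KO1) and 1, 1, 2 and 1 (KO2), and for KO1 against KO2 1, 1, 2 and 1. With the R2 block the shares of all genes called were 32.5% (control), 27.9% (KO1), 27% (KO2) and 54.9% (average) for bortezomib. For knockout they were 7.96% (KO1) and 4.89% (KO2) in vehicle, 12.8% and 6.47% with bortezomib, and 2.48% for KO1 against KO2. Without the block at most 0.467% passed in a contrast of 2 groups. Shares for the other block fits are not given here. The counts for single lines and for KO1 against KO2, also those with a library left out, include CPS1 (8 members tested). The others are out of 7. As CPS1 chose the members, its passing is not a result. CPS1 was among the 4 of the control line with the R2 block and with voom, and among the 2 of KO1 against KO2 with voom. Without CPS1 the R2 block gave 3 (control), 3 (KO1), 4 (KO2) and 1 (KO1 against KO2). Apart from CPS1, the members that voom added were CAD and ASS1. With 1 library left out, with and without the block, counts ranged from 0 to 4 (control), 0 to 3 (KO1), 0 to 4 (KO2) and 1 to 4 (average) for bortezomib, from 0 to 1 (KO1) and 0 to 2 (KO2) for knockout in either treatment, and from 0 to 1 for KO1 against KO2. A lone library left in a group was assumed to vary like the others.

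Of the 80 differences of the 8 tested members over all contrasts, 35 changed sign without the block when 1 library was left out and 21 with it, and 0 of these had passed with all libraries. They include OAT, GLUD1 and ASL with bortezomib. CPS1 with bortezomib in KO1 ranged from -0.32 to 0.22 (0.17 without KO1 bortezomib replicate 2, with the block), and ASS1 in KO2 against control with bortezomib from -0.64 to 0.26. Depth limits NAGS, ARG2 and the residual CPS1 of KO1, which had 6 to 16 reads a library.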
